A study of Mus musculus with 12 samples.

Results

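A set of 10 genes that mark T cells and natural killer (NK) cells were followed through RNA sequencing of F4/80-sorted cells from the mouse uterus lining. They are Cd3e, Trbc1, Cd28, Ncr1, Klrb1c, Nkg7, Prf1, Gzma, Gzmb and Ifng, chosen by symbol out of 22294 genes in the table as lymphocyte genes that could mark a source of interferon-gamma in the sorted cells. The 12 libraries fall into 4 groups of 3. Primed MSC mice had the intrauterine adhesion (IUA) model and received mesenchymal stromal cells (MSC) of human umbilical cord after these had been primed with inflammatory cytokines. Control MSC mice had the same model and were given control MSC of the same source. IUA mice had the model without MSC and are labelled Matrigel, a basement membrane gel, and it is not stated whether the MSC groups also received it. Sham mice had a sham operation. Age and strain are not given in the labels, and nothing in them says that libraries of a group came from separate animals, so p-values measure the spread between these libraries, which may be partly technical. Cells were released from endometrium with trypsin and collagenase and captured on magnetic beads against F4/80, a surface protein of mouse macrophages.

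T cells recognise antigen through the T cell receptor, whose signal passes through the CD3 chains and is strengthened by the co-stimulatory receptor CD28. NK cells carry activating receptors such as NKp46 and NK1.1 instead, and in the uterus they are an abundant lymphocyte of the lining. Both kill through granules that hold perforin and granzymes, and both secrete interferon-gamma, a cytokine that activates macrophages.

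Values are FPKM, the fragments of a gene divided by the length of its transcript and by the library's total of mapped fragments, and tests were made on log2(FPKM + 1). A gene is said to rise, fall or pass where limma's adjusted p was under 0.05 over all tested genes. The depth of a library, estimated from the step that 1 fragment leaves between low values, was 15140000 to 23720000 fragments. The defining macrophage gene Adgre1, which encodes F4/80, was at 982.99 to 1381.86 FPKM in primed MSC, 836.65 to 1038.88 in control MSC, 401.22 to 475.56 in IUA and 204.74 to 256.14 in Sham libraries. The summed FPKM of 8 macrophage genes was 3757 to 4356 in primed MSC, 3517 to 3886 in control MSC, 2840 to 3445 in IUA and 1459 to 1919 in Sham libraries. The summed FPKM of 5 epithelial genes was 1352 to 2048 in primed MSC, 1312 to 3360 in control MSC, 1381 to 4868 in IUA and 7245 to 12720 in Sham libraries. None of these 13 genes was at 0 in any library. Against Sham, 8 of 8 macrophage genes rose and 5 of 5 epithelial and 5 of 5 endothelial genes fell in primed MSC. There 4 of 7 neutrophil genes and 1 of 3 B cell genes rose, and 4 of 6 mast cell and 3 of 4 dendritic cell genes fell. Of all 11604 tested genes, 1684 rose and 5219 fell in that comparison. Against IUA, 1410 of all tested genes rose and 809 fell in primed MSC. There 4 of 8 macrophage genes rose, and 0 of 5 epithelial genes passed. The part of these cells in the results below was not tested. The tested genes as a whole had a median log2 change against Sham of -0.33 in primed MSC, -0.30 in control MSC and -0.35 in IUA libraries. It was -0.03 to 0.02 among the 3 groups with the model. Scaling by median ratios left medians of 0.00 to 0.04 in size against Sham. Calls of the 10 genes that this scaling changed are given with the genes below. In the lists of other cell types it changed single calls in primed MSC against Sham, with 4 of 5 endothelial and 3 of 6 mast cell genes lower, 2 of 3 B cell genes higher, and 3 of 4 dendritic cell genes lower and 1 higher.

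For the 10 genes and for GC content, 1 library each stood apart. Control MSC replicate 3 had the highest FPKM of its group for 10 of the 10 genes. In IUA replicate 3, deviations from the gene means followed the GC content of transcripts with a Spearman correlation of -0.485 across 11601 genes, against -0.183 to 0.22 in the other 11 libraries. Genes are not independent replicates, so this is a description.

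The regions before the start sites of 4 of the genes show what sequence the group has at its promoters. They are Nkg7, Prf1 and Gzmb, granule genes that fell in primed MSC against Sham, and Ifng, the cytokine in question. They come from RefSeq on build GRCm38.p6 and run from 250 bases before to 50 bases after the annotated start, 5′ to 3′ on the strand of the gene. Capitals mark 2 motifs searched on both strands, the T-box letters AGGTGT, reverse complement ACACCT, bound by factors such as T-bet and Eomes, and the RUNX letters TGTGGT, reverse complement ACCACA. The motifs do not overlap in these windows. The Nkg7 window is chr7:43436888-43437187 on the plus strand, that of Prf1 is chr10:61297586-61297885 on the plus strand, that of Gzmb is chr14:56262285-56262584 on the minus strand, and that of Ifng is chr10:118440796-118441095 on the plus strand.
Nkg7: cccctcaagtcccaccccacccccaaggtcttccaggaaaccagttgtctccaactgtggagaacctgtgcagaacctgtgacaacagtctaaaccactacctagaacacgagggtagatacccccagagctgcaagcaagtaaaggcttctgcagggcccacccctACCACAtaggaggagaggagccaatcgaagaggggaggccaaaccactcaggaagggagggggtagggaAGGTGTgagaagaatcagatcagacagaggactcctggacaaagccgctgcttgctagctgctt
Prf1: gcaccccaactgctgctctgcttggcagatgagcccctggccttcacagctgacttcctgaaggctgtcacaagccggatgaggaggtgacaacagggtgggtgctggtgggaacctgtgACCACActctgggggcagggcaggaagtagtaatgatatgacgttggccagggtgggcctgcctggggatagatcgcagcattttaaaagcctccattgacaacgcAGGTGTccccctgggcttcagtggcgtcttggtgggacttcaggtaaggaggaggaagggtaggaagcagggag
Gzmb: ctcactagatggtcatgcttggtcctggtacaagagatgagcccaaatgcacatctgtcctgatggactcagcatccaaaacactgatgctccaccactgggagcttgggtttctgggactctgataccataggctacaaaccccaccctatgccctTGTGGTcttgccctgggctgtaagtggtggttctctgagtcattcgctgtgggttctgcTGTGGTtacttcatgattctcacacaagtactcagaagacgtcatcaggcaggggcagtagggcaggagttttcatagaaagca
Ifng: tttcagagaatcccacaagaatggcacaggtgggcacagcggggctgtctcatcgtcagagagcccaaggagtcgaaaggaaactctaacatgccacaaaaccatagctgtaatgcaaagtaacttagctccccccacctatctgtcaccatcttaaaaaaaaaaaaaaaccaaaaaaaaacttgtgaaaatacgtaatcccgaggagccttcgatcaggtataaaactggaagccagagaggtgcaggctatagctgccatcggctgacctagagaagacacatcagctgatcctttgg
Of the 10 genes, 8 had a promoter in the table, and Cd28 and Trbc1 are named only. A T-box match was present in 4 of the 8, a RUNX match in 6 of the 8 and either in 7 of the 8. Over 32851 promoters of the same length, 13.7 percent held the T-box letters and 16.8 percent the RUNX letters. The Nkg7 and Prf1 windows hold 1 match of each kind, the Gzmb window holds 2 RUNX matches, and the Ifng window holds neither set of letters. The T-box match begins 14 bases before the RefSeq start of Nkg7 and 24 bases before that of Prf1. The gene ranges given below come from GENCODE, and their starts can differ from those of RefSeq. That of Nkg7 begins at 43437073, so the T-box match of Nkg7 lies inside that range. A match is a run of letters and not a measured site.

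Cd3e, the epsilon chain of CD3 that every mature T cell needs for its receptor, was near 0 throughout (minus strand of chromosome 9, 44998740 to 45009627, GRCm38). It was at 0, 0.07 and 0.03 FPKM in primed MSC, 0.08, 0 and 0.21 in control MSC, 0.42, 0 and 0.04 in IUA, and 0.35, 0 and 0.27 in Sham libraries. Each group held a library listed at 0, and all groups overlapped. Cd3e did not reach 1 FPKM in any library and so did not enter the test of filtered genes. In the fit without a filter its log2 changes were -0.21 to -0.06 in the 6 comparisons, with adjusted p of 0.26 to 0.948 by limma.

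Trbc1, a constant segment of the T cell receptor beta chain, was lower in every group with the model than in Sham, and lowest in primed MSC (plus strand of chromosome 6, 41538218 to 41539881). It was at 0.65, 1.37 and 0.68 FPKM in primed MSC, 1.75, 1.71 and 4.71 in control MSC, 3.74, 2.23 and 2.99 in IUA, and 6.34, 5.72 and 8.26 in Sham libraries. All primed MSC libraries lay below all others, all Sham libraries lay above all others, and control MSC overlapped IUA. Trbc1 fell in primed MSC against IUA by 1.07 ± 0.28 on the log2 scale (SE, limma adjusted p = 0.0209). It also fell against Sham, with log2 changes of -2.04 ± 0.28 in primed MSC (adjusted p = 9.79e-05), -1.14 ± 0.28 in control MSC (adjusted p = 0.00423) and -0.97 ± 0.28 in IUA (adjusted p = 0.0111). In primed against control MSC it was lower without overlap, with a log2 change of -0.90 and an adjusted p of 0.232. The fall in IUA did not pass under median-ratio scaling (-0.63, adjusted p = 0.0952). The call in primed MSC against IUA was lost without IUA replicate 1, IUA replicate 3, primed MSC replicate 1 or primed MSC replicate 3, with log2 changes between -1.24 and -0.94 over all 12 libraries left out. The sequence of Trbc1 is close to that of its neighbour Trbc2, so reads may have been shared between them. Trbc2 was at 0.36 to 0.59 FPKM in primed MSC, 0.49 to 2.04 in control MSC, 0.92 to 2.16 in IUA and 0.68 to 1.32 in Sham libraries. In bulk samples, fewer cells with Trbc1 RNA, less of it per cell and more RNA from other cells cannot be told apart.

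Cd28, the co-stimulatory receptor of T cells, had another order of groups (plus strand of chromosome 1, 60716800 to 60773359). It was at 1.75, 2.51 and 2.70 FPKM in primed MSC, 2.62, 2.89 and 3.88 in control MSC, 4.81, 4.38 and 7.68 in IUA, and 1.94, 1.65 and 1.52 in Sham libraries. The IUA libraries lay above all others, primed and control MSC overlapped, and Sham overlapped primed MSC alone. Cd28 rose in IUA against Sham by a log2 change of 1.26 ± 0.20 (limma adjusted p = 3.82e-04). It fell in primed MSC against IUA (-0.98 ± 0.20, adjusted p = 0.00709). The log2 change was -0.66 in control MSC against IUA, with an adjusted p of 0.12, although the groups did not overlap. Cd28 rose in control MSC against Sham (0.60 ± 0.20, adjusted p = 0.0212). Without control MSC replicate 3 that change was 0.48 with an adjusted p of 0.0894, and the call was also lost without Sham replicate 2 or Sham replicate 3. In primed MSC against Sham the log2 change was 0.29 (adjusted p = 0.228), and 0.55 with an adjusted p of 0.0341 under median-ratio scaling. It was the sole member above Sham in a called comparison.

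**Figure D1:**
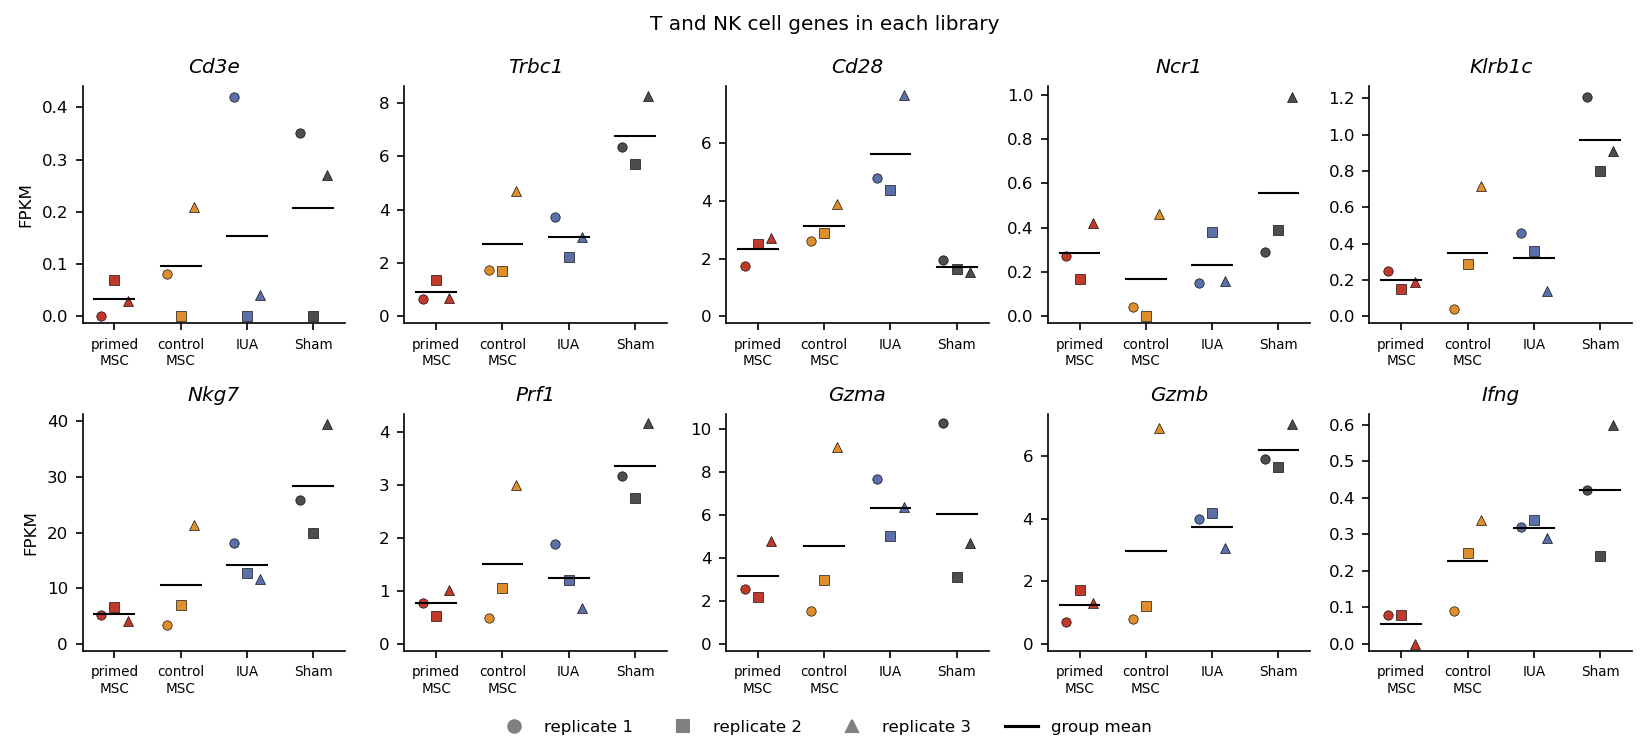
FPKM of each of the 10 genes (vertical axis, linear, a separate scale for each gene) in the 12 libraries, grouped as primed MSC, control MSC, IUA and Sham from left to right. Symbols mark replicates 1 to 3 and bars the group mean. Sham libraries are highest for Trbc1, control MSC replicate 3 (triangle) is the highest of its group for all 10 genes, and Cd28 is highest in IUA.

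Ncr1 encodes NKp46, an activating receptor of NK cells and group 1 innate lymphoid cells (plus strand of chromosome 7, 4337724 to 4345164). It was at 0.27, 0.17 and 0.42 FPKM in primed MSC, 0.04, 0 and 0.46 in control MSC, 0.15, 0.38 and 0.16 in IUA, and 0.29, 0.39 and 0.99 in Sham libraries. No pair of groups was free of overlap, and the highest value was in Sham replicate 3. Ncr1 passed in no comparison, with log2 changes in the fit without a filter of -0.41 to 0.16 and limma adjusted p of 0.0934 to 0.895. Without control MSC replicate 3 its change in control MSC against Sham was -0.58 with an adjusted p of 0.0257.

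Klrb1c encodes NK1.1, a lectin-like receptor of NK cells in several mouse strains (minus strand of chromosome 6, 128778485 to 128789215). It was at 0.25, 0.15 and 0.19 FPKM in primed MSC, 0.04, 0.29 and 0.72 in control MSC, 0.46, 0.36 and 0.14 in IUA, and 1.21, 0.80 and 0.91 in Sham libraries. Every Sham library was above every library with the model, and those 3 groups overlapped. Klrb1c was under the filter of 1 FPKM in 3 libraries. In the fit without a filter it fell against Sham in primed MSC (log2 change -0.72 ± 0.16, limma adjusted p = 0.00498), control MSC (-0.57 ± 0.16, adjusted p = 0.0167) and IUA (-0.58 ± 0.16, adjusted p = 0.0164). Under median-ratio scaling the falls in control MSC (-0.40, adjusted p = 0.0858) and IUA (-0.41, adjusted p = 0.0886) did not pass. The fall in IUA was also lost without IUA replicate 3 or Sham replicate 1 (adjusted p = 0.0621 and 0.0546), and that in control MSC without Sham replicate 1 or control MSC replicate 1 or 2 (0.0507 to 0.0568). With a pseudocount of 0.1 the fall in IUA did not pass (-1.42, adjusted p = 0.0625), nor did that in control MSC with those 2 groups fitted alone (adjusted p = 0.0527).

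Nkg7, a membrane protein of cytotoxic granules shared by NK cells and killer T cells, had the highest mean FPKM of the 10 genes in every group (plus strand of chromosome 7, 43437073 to 43438249). It was at 5.14, 6.59 and 4.13 FPKM in primed MSC, 3.39, 7.06 and 21.40 in control MSC, 18.08, 12.67 and 11.71 in IUA, and 25.91, 19.92 and 39.55 in Sham libraries. Primed MSC libraries lay below IUA libraries and IUA libraries below Sham libraries without overlap, while control MSC spanned the range of both other groups with the model. Nkg7 fell against Sham in primed MSC (log2 change -2.19 ± 0.46, limma adjusted p = 0.00148) and in control MSC (-1.62 ± 0.46, adjusted p = 0.00974). In IUA against Sham the change was -0.93 ± 0.46 (adjusted p = 0.102), and in primed MSC against IUA it was -1.26 ± 0.46 (adjusted p = 0.071). Both have no control MSC library in them but share its estimate of spread. At the same log2 changes they passed without control MSC replicate 3 (adjusted p = 0.0172 in IUA against Sham and 0.0142 in primed MSC against IUA) and without control MSC replicate 1 (0.0404 and 0.0292). Without control MSC replicate 3 the change in primed against control MSC was 0.06, against -0.58 with all libraries.

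Prf1 encodes perforin, which opens the membrane of target cells (plus strand of chromosome 10, 61297833 to 61304680). It was at 0.78, 0.52 and 1.01 FPKM in primed MSC, 0.48, 1.06 and 3.00 in control MSC, 1.88, 1.20 and 0.68 in IUA, and 3.17, 2.75 and 4.16 in Sham libraries. Sham libraries lay above primed MSC and IUA libraries, and control MSC replicate 3 reached into the Sham range. Prf1 fell against Sham in primed MSC (log2 change -1.30 ± 0.31, limma adjusted p = 0.00361), control MSC (-0.91 ± 0.31, adjusted p = 0.0261) and IUA (-0.97 ± 0.31, adjusted p = 0.0193). Under median-ratio scaling the falls in control MSC (-0.63, adjusted p = 0.118) and IUA (-0.69, adjusted p = 0.098) did not pass. The fall in IUA was also lost without IUA replicate 3 (adjusted p = 0.0782) or Sham replicate 3 (0.0686), and that in control MSC without Sham replicate 1 or 3 or control MSC replicate 1 or 2 (0.0506 to 0.112).

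Gzma encodes granzyme A, a granule protease of NK cells and killer T cells (minus strand of chromosome 13, 113093825 to 113100981). It was at 2.55, 2.19 and 4.77 FPKM in primed MSC, 1.54, 2.99 and 9.17 in control MSC, 7.65, 5.01 and 6.35 in IUA, and 10.27, 3.12 and 4.71 in Sham libraries. Primed MSC lay below IUA without overlap, and Sham overlapped every group. Gzma passed in no comparison. Its log2 change was -0.85 ± 0.47 in primed MSC against IUA (limma adjusted p = 0.216), -0.67 in primed MSC against Sham (adjusted p = 0.229) and 0.18 in IUA against Sham (adjusted p = 0.765).

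Gzmb encodes granzyme B, the protease that starts the death of target cells (minus strand of chromosome 14, 56258838 to 56262260). It was at 0.69, 1.71 and 1.31 FPKM in primed MSC, 0.79, 1.21 and 6.91 in control MSC, 3.98, 4.17 and 3.07 in IUA, and 5.90, 5.64 and 7.04 in Sham libraries. Primed MSC, IUA and Sham were in rising order with no overlap, and control MSC held 2 libraries in the primed MSC range and 1 in the Sham range. Gzmb fell against Sham in primed MSC (log2 change -1.71 ± 0.42, limma adjusted p = 0.00423) and in control MSC (-1.19 ± 0.42, adjusted p = 0.0305). In primed MSC against IUA the change was -1.10 ± 0.42 (adjusted p = 0.0865) and in IUA against Sham -0.60 ± 0.42 (adjusted p = 0.24). Without control MSC replicate 3 both passed at the same log2 changes, with adjusted p of 0.00527 and 0.0204. The fall in control MSC against Sham did not pass without a filter (adjusted p = 0.059), under median-ratio scaling (-0.87, adjusted p = 0.108) or without any 1 of the Sham libraries or of control MSC replicates 1 and 2 (adjusted p = 0.0583 to 0.128).

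**Figure D2:**
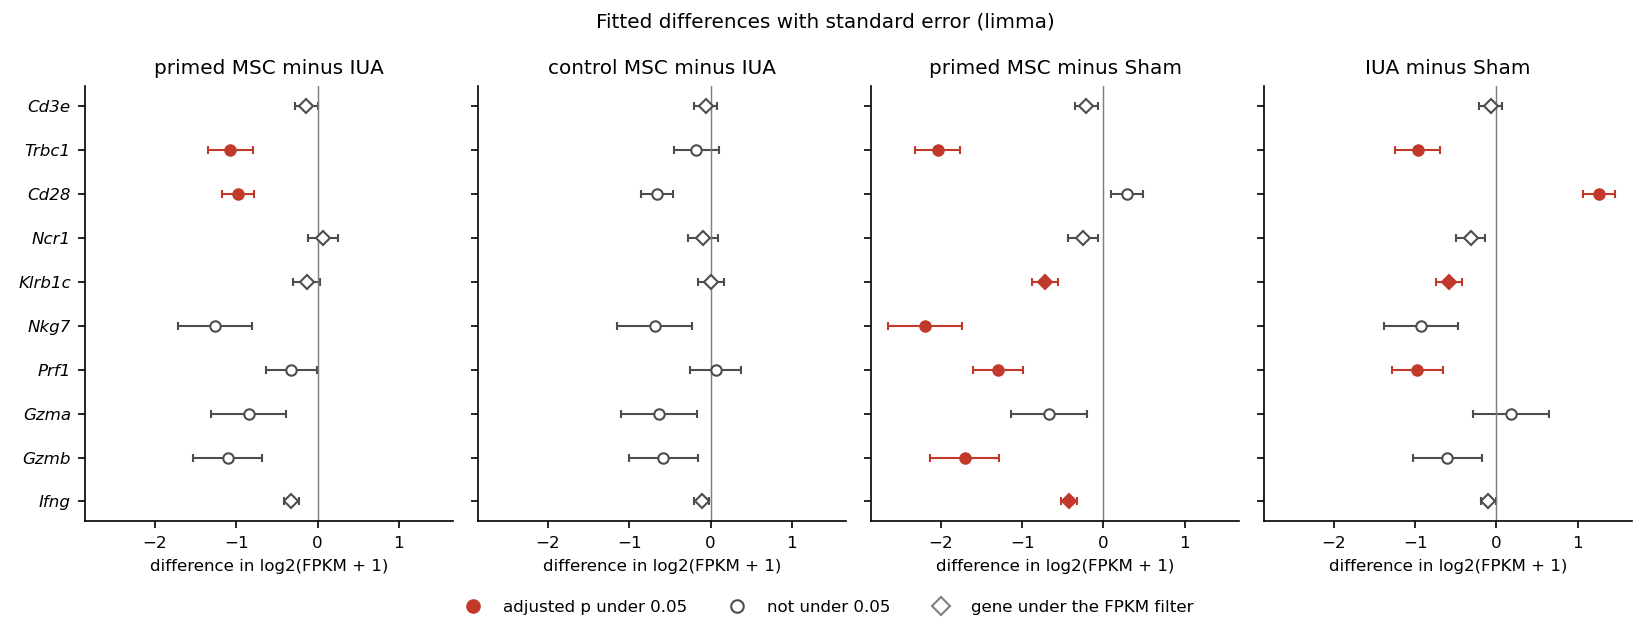
Difference in log2(FPKM + 1) with its standard error from limma (horizontal axis) for each of the 10 genes in 4 comparisons. Red points passed an adjusted p of 0.05, open points did not, and diamonds are the 4 genes under the filter on FPKM, taken from the fit to all genes. Trbc1 and Cd28 passed in primed MSC against IUA (-1.07 and -0.98), none passed in control MSC against IUA, and Cd28 lies on the other side of 0 from Trbc1 in IUA against Sham.

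Ifng, which encodes interferon-gamma itself, was under 1 FPKM in every library (plus strand of chromosome 10, 118441046 to 118445892). It was at 0.08, 0.08 and 0 FPKM in primed MSC, 0.09, 0.25 and 0.34 in control MSC, 0.32, 0.34 and 0.29 in IUA, and 0.42, 0.24 and 0.60 in Sham libraries. In FPKM all primed MSC libraries lay below every other library, and control MSC, IUA and Sham overlapped. With a transcript of 1208 bases and the estimated depths, these values stand for 2, 2 and 0 fragments in primed MSC, 2, 6 and 8 in control MSC, 7, 8 and 6 in IUA, and 12, 5 and 11 in Sham libraries, each within 0.18 of a whole number. Summed over 3 libraries they make 4 fragments in primed MSC (exact Poisson 95 percent interval 1.09 to 10.24), 16 in control MSC (9.15 to 25.98), 21 in IUA (13.0 to 32.1) and 28 in Sham (18.61 to 40.47). The interval of primed MSC ends below that of IUA and of Sham and overlaps that of control MSC, and intervals cover counting error only. The 0 in primed MSC replicate 3 allows up to 3 fragments, or 0.126 FPKM. Control MSC replicate 1 was above primed MSC replicates 1 and 2 in FPKM alone, with 2 estimated fragments in each. Ifng was thus present at a few fragments a library in 11 of 12 libraries.

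In the fit without a filter, Ifng fell in primed MSC against Sham (log2 change -0.42 ± 0.09, limma adjusted p = 0.00433). With a pseudocount of 1 such a change understates the ratio of a gene at this level, since the primed MSC mean was 0.127 times the Sham mean. In primed MSC against IUA the mean ratio was 0.168, the log2 change -0.32 ± 0.09 and the adjusted p 0.0576. That change passed with a pseudocount of 0.1 (-1.49, adjusted p = 0.0327) and under median-ratio scaling (-0.34, adjusted p = 0.0422). At the same log2 change it also passed without Sham replicate 2, Sham replicate 3 or control MSC replicate 1 (adjusted p = 0.0367 to 0.0448). It did not pass without any 1 of the IUA or primed MSC libraries, which are those compared. Nor did it pass without Sham replicate 1 or control MSC replicate 2 or 3, with a replicate block, or with libraries scaled to equal totals. The other changes of Ifng were -0.21 in primed against control MSC (adjusted p = 0.496), -0.21 in control MSC against Sham (adjusted p = 0.102), -0.11 in control MSC against IUA (adjusted p = 0.673) and -0.10 in IUA against Sham (adjusted p = 0.431). In IUA against Sham the change was 0.00 under median-ratio scaling.

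Counted by comparison, 6 of the 10 genes passed the filter of 1 FPKM in at least 3 libraries, and Cd3e, Klrb1c, Ncr1 and Ifng did not. The counts of the 6 are read against the share of all 11604 tested genes called by the same rule. In primed MSC against IUA, 2 of 6 fell (Trbc1 and Cd28), against 6.97 percent of all tested genes that fell, and the count was 4 without control MSC replicate 3 and 1 without IUA replicate 1 or 3 or primed MSC replicate 1 or 3. In control MSC against IUA 0 of 6 passed, with 1 at an unadjusted p under 0.05, and 0.853 percent of all tested genes did. In primed against control MSC 0 of 6 passed, with 1 at an unadjusted p under 0.05, and 0.112 percent of all tested genes did. Against Sham, 4 of 6 fell in primed MSC, where 45.0 percent of all tested genes fell. In control MSC 4 of 6 fell and 1 rose, where 42.7 percent of all tested genes fell and 14.1 percent rose. The calls there were 3 without Sham replicate 1 or 2 or control MSC replicate 1 or 2, and 2 without Sham replicate 3. In IUA 2 of 6 fell and 1 rose, where 45.0 percent of all tested genes fell and 11.1 percent rose, and without control MSC replicate 3 the calls were 5. With all libraries, the falls among the 6 against Sham were a larger share than among all genes in primed and control MSC. In IUA they were a smaller one. With 6 genes each gene is a large part of that share. In control MSC, Nkg7 and Trbc1 alone fell without Sham replicate 1 or 3 or control MSC replicate 1 or 2. In IUA, Gzmb and Nkg7 fell as well without control MSC replicate 3. The shares in control MSC and IUA thus depended on single libraries. Under median-ratio scaling 1 of 6 passed in IUA against Sham (Cd28), 3 in control MSC against Sham (Cd28, Nkg7 and Trbc1), 5 in primed MSC against Sham and 2 in primed MSC against IUA. Of these calls, Cd28 rose against Sham and the others fell. Of 11476 genes tested under that scaling, 2657 rose and 2501 fell in IUA against Sham, and 3052 and 2728 in control MSC against Sham. In primed MSC 3249 rose and 2834 fell against Sham, and 1527 rose and 872 fell against IUA. By the F test over the 4 groups 5 of 6 differed, all but Gzma, where 67.0 percent of all tested genes did, and 3 without Sham replicate 3. In the fit without a filter, the genes under the filter that fell were Klrb1c in IUA against Sham, where 31.9 percent of 18057 genes fell, Klrb1c in control MSC against Sham, where 32.0 percent fell, and Klrb1c and Ifng in primed MSC against Sham, where 33.3 percent fell. The comparisons share control libraries, so their counts are not independent.

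The median log2 change of the 6 was -1.02 in primed MSC against IUA, where that of all tested genes was -0.03. It was -0.61 in control MSC against IUA, -0.45 in primed against control MSC, -1.50 in primed MSC against Sham, -1.02 in control MSC against Sham and -0.77 in IUA against Sham. The summed FPKM of the 10 genes was 12.16 to 15.36 in primed MSC, 10.82, 17.46 and 50.8 in control MSC, 30.74 to 41.49 in IUA and 40.23 to 68.01 in Sham libraries. Nkg7 makes up the largest share of that sum. The primed MSC libraries and control MSC replicates 1 and 2 lay below all IUA and Sham libraries, and control MSC replicate 3 lay within the Sham range. Compared group by group, the 3 primed MSC libraries were below the 3 IUA libraries without overlap for 6 of the 10 genes, below the Sham libraries for 6 and below the control MSC libraries for 2, Trbc1 and Ifng. For Ifng, primed MSC replicates 1 and 2 were at 0.08 FPKM and control MSC replicate 1 at 0.09. Each of these values stands for 2 estimated fragments. Of 18057 genes above 0, 13.3 percent were lower without overlap in primed MSC against IUA, 39.4 percent against Sham and 9.61 percent against control MSC.

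Control MSC replicate 3 had the highest values of Gzmc, Gzmd, Gzme and Gzmf among the 12 libraries. Granzymes C, D, E and F are proteases of activated killer cells and, in the mouse, of uterine NK cells. Their genes neighbour Gzmb on the minus strand of chromosome 14, between 56117626 and 56234656, and were named here after their values were seen. Gzmc was at 7.09 FPKM in that library, against 0.95 and 2.61 in the other control MSC libraries, 0.22 to 1.05 in primed MSC, 0.58 to 2.51 in IUA and 1.56 to 2.64 in Sham. Gzmd was at 3.56 FPKM there and at most 0.85 elsewhere, Gzme at 1.19 and at most 0.18 elsewhere, and Gzmf at 1.81 and at most 0.57 elsewhere. These genes are similar in sequence, so reads may have been shared among them. The library had the highest FPKM of its group for 20 of 26 NK cell genes, 19 of 25 T cell genes and 15 of 18 genes of the cytotoxic granule. These lists hold every member but Ifng, and the granule list also holds Gzmc, Gzmd, Gzme and Gzmf. The counts thus partly repeat the values above, and the share over all genes was not counted. Control MSC replicate 3 was also highest for 5 of 6 regulatory T cell, 5 of 8 mast cell and 4 of 7 neutrophil genes, and for 2 of 8 macrophage and 0 of 5 epithelial genes. Ranked over the 12 libraries for each of the 10 genes, its mean rank was 9.85, near the 10, 7.05 and 10 of the Sham libraries and above the 3.1 and 4.55 of the other control MSC libraries. IUA libraries had mean ranks of 6.2 to 8.3 and primed MSC libraries of 3.1 to 4.7.

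**Figure D3:**
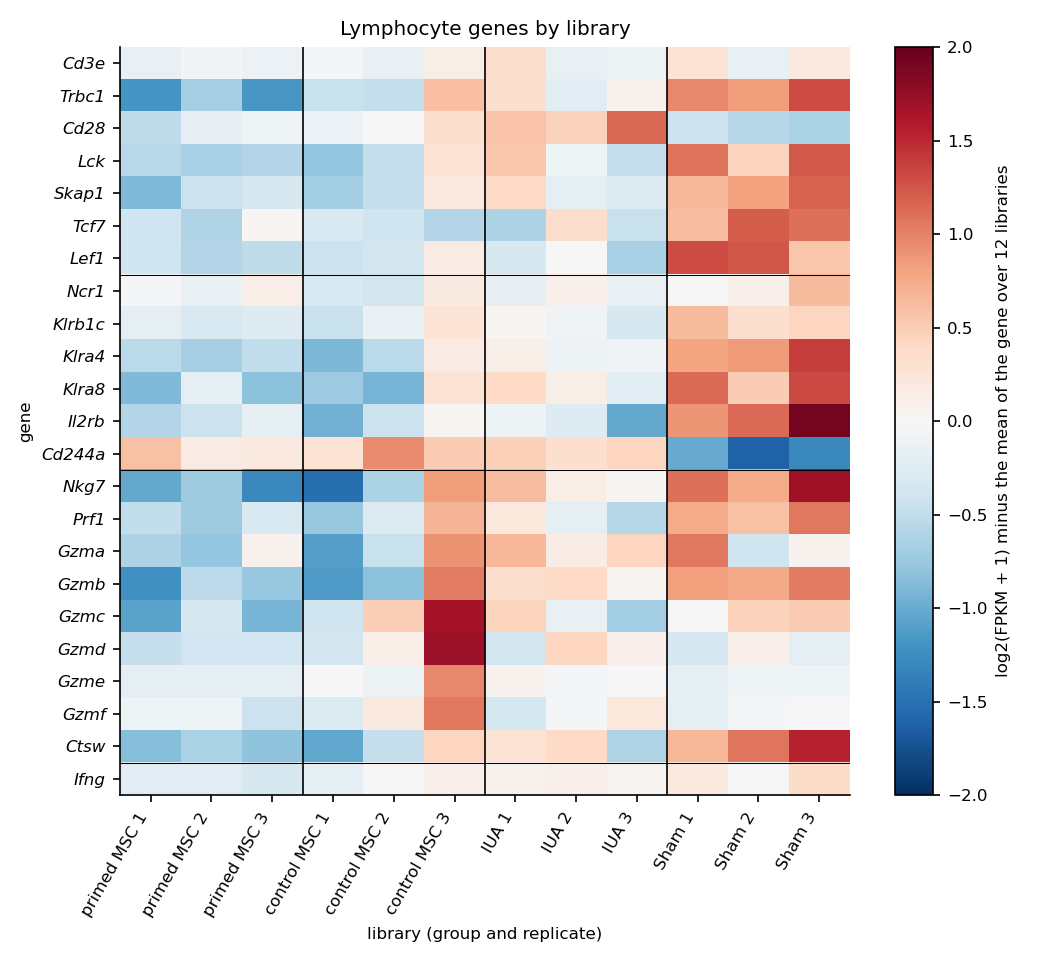
Level of 23 lymphocyte genes (rows: T cell genes, NK cell genes, granule genes and Ifng) in the 12 libraries (columns, primed MSC at the left and Sham at the right). Colour gives log2(FPKM + 1) minus the mean of the gene over all libraries. Sham columns are above the gene mean for most genes, Cd244a and Cd28 are below it there, and control MSC replicate 3 is above the other 2 columns of its group for all 10 genes and for Gzmc, Gzmd, Gzme and Gzmf.

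Other T cell genes were read from a list of 25, of which 14 passed the filter and 12 were not among the 10 genes. In primed MSC against Sham 8 of these 12 fell and 0 rose (median log2 change -0.79, all tested genes -0.33). In control MSC against Sham 6 fell, and in IUA against Sham 5 fell (median -0.40, all tested genes -0.35). Of all tested genes 45.0 percent fell in primed MSC, 42.7 percent in control MSC and 45.0 percent in IUA, so the counts in control MSC and IUA are near those of all genes. Under median-ratio scaling, with 10 tested, 5 fell in primed MSC, 4 in control MSC and 2 in IUA. Lck, the kinase that starts T cell receptor signalling, was at 1.07 to 1.23 FPKM in primed MSC, 0.90 to 2.96 in control MSC, 1.38 to 3.78 in IUA and 3.43 to 6.62 in Sham libraries. It fell in primed MSC against Sham (log2 change -1.51 ± 0.31, limma adjusted p = 0.00118). Tcf7 and Lef1, transcription factors of T cell development, fell in IUA against Sham by log2 changes of -1.21 ± 0.26 (adjusted p = 0.00204) and -1.36 ± 0.24 (adjusted p = 6.36e-04), and Skap1, an adaptor of the T cell receptor, by -0.90 ± 0.26 (adjusted p = 0.0111; 0.0776 under median-ratio scaling). Against IUA 1 of 12 fell in primed MSC, the adhesion receptor Cd2 (-1.03, adjusted p = 0.0289). Of all tested genes 6.97 percent fell there, so this count is near that of all genes. The defining T cell genes other than the members were low. Cd3d was at 0 to 0.24 FPKM, Cd3g at 0.05 to 0.91 and Cd8a at 0 to 0.20 over the 12 libraries, and Bcl11b was at or under 0.1 FPKM in every library.

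Other NK cell genes were read from a list of 26, of which 17 passed the filter. Of these, 10 fell and 1 rose in primed MSC against Sham (median log2 change -0.93, all tested genes -0.33), where 45.0 percent of all tested genes fell. In control MSC against Sham 10 fell and 1 rose, where 42.7 percent of all tested genes fell. In IUA against Sham 6 fell and 1 rose (median -0.57), a smaller share than the 45.0 percent of all tested genes that fell there. Under median-ratio scaling 9 fell and 1 rose in primed MSC, 4 fell and 1 rose in control MSC, and 2 fell and 2 rose in IUA. Il2rb, the chain through which NK cells respond to interleukins 2 and 15, was at 1.68, 2.00 and 2.58 FPKM in primed MSC, 1.07, 2.00 and 3.17 in control MSC, 2.77, 2.38 and 0.99 in IUA, and 6.46, 7.88 and 14.28 in Sham libraries. It fell in all 3 groups against Sham, with log2 changes of -1.77 to -1.71 and adjusted p of 7.11e-04 to 8.07e-04. Klra4 and Klra8, receptors of the Ly49 family whose members are alike enough to share reads, fell in primed MSC against Sham by log2 changes of -1.57 ± 0.24 and -1.62 ± 0.32 (adjusted p = 2.16e-04 and 0.00103). Cd244a, which encodes the receptor 2B4 found on NK cells and also on myeloid cells, rose in all 3 groups against Sham, with log2 changes of 1.62 in primed MSC, 1.88 in control MSC and 1.72 in IUA. Against IUA 1 of 17 fell in primed MSC, Klra7 of the Ly49 family (-1.29, adjusted p = 0.0341). Of all tested genes 6.97 percent fell there, so this count is near that of all genes.

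Among 8 other granule genes, 3 rose and 4 fell in primed MSC against Sham (3 and 3 under median-ratio scaling), and 1, Srgn, fell in primed MSC against IUA (-0.47, limma adjusted p = 0.031). Of all 11604 tested genes, 1684 rose and 5219 fell in primed MSC against Sham, and 809 fell against IUA. The counts here are read beside these. Serglycin (Srgn) and cathepsin C (Ctsc), which macrophages also make, rose in primed MSC against Sham by log2 changes of 1.14 ± 0.14 and 1.33 ± 0.13 (limma adjusted p = 4.09e-05 and 1.20e-05). Cathepsin W (Ctsw), a protease of NK cells and killer T cells, fell by -1.86 ± 0.36 (adjusted p = 9.18e-04), and Rab27a, which docks granules at the membrane, by -1.52 ± 0.28 (adjusted p = 7.32e-04). In a list of 17 genes of gamma-delta T cells and innate lymphoid cells, 7 were tested. Areg, a growth factor that many cells make, rose in primed MSC against Sham (1.53 ± 0.20), and 4 fell, among them Zbtb16 (-0.67 ± 0.14). Of 6 regulatory T cell genes 2 were tested, Tnfrsf18, which fell in primed MSC against Sham (-1.24 ± 0.35, adjusted p = 0.00879), and Ctla4, which passed in no comparison. The defining factor Foxp3 was at or under 0.1 FPKM in every library.

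Genes upstream and downstream of interferon-gamma had mixed patterns, some in the direction of Ifng and some against it. Of 9 cytokines that drive or shape its production, 7 were tested, and 5 rose and 0 fell in IUA against Sham. Among all tested genes 11.1 percent rose and 45.0 percent fell there. Il18 was at 10.34 to 14.17 FPKM in primed MSC, 10.9 to 15.4 in control MSC, 17.11 to 23.79 in IUA and 6.41 to 8.56 in Sham libraries. It rose in IUA against Sham (log2 change 1.29 ± 0.17, limma adjusted p = 1.73e-04) and fell in primed MSC against IUA (-0.67 ± 0.17, adjusted p = 0.0206). Il12a, a subunit of interleukin 12, was at 0.89 to 3.76 FPKM in primed MSC, 1.11 to 2.40 in control MSC and 0.37 to 1.10 in IUA libraries, and was listed at 0 in the 3 Sham libraries. Il23a fell in primed MSC against IUA (-1.29 ± 0.23, adjusted p = 0.00425), and Ebi3, a subunit of interleukin 27, rose (1.26 ± 0.18, adjusted p = 0.00132). Of 8 receptors and factors for these cytokines 7 were tested, and 2 rose in primed MSC against IUA, Stat4 (0.79 ± 0.14, adjusted p = 0.00415) and Il21r (1.19 ± 0.17, adjusted p = 0.00149). In that comparison 1410 of all 11604 tested genes rose. Il2 and Il21, cytokines made by T cells, were at or under 0.1 FPKM in every library.

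Of 8 genes of the interferon-gamma receptor and its signalling, all tested, 2 rose and 2 fell in primed MSC against Sham (4 and 0 under median-ratio scaling). Among all 11604 tested genes 1684 rose and 5219 fell there. In primed MSC 1 of the 8 rose and 0 fell against IUA, and likewise against control MSC. The receptor chain of interferon-gamma, Ifngr1, rose in primed MSC against Sham (log2 change 0.50 ± 0.09, limma adjusted p = 5.48e-04). Jak1 and Jak2, the kinases of the receptor, fell by -0.57 ± 0.09 and -0.62 ± 0.13 (adjusted p = 2.33e-04 and 0.00139), which did not pass under median-ratio scaling. Jak2 also fell in IUA against Sham (-0.35), where its change was 0.05 under that scaling.

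Of 16 genes that interferon-gamma induces, 13 were tested, and 1 of them passed in primed MSC against IUA. It was Nos2, the nitric oxide synthase of activated macrophages (log2 change 1.52 ± 0.36, limma adjusted p = 0.0134). Cxcl9, the chemokine that draws activated T and NK cells, was at 12.13, 13.04 and 18.00 FPKM in primed MSC, 3.83, 6.44 and 7.27 in control MSC, 9.71, 8.80 and 9.17 in IUA, and 1.13, 1.50 and 1.09 in Sham libraries. The 4 groups did not overlap, with primed MSC the highest and Sham the lowest. Cxcl9 rose in primed MSC against Sham (2.77 ± 0.20, adjusted p = 1.87e-06), and its change in primed MSC against IUA was 0.57 ± 0.20 (adjusted p = 0.0646). In primed against control MSC its change was 1.19 (adjusted p = 0.0504), and 1.23 with an adjusted p of 0.0377 under median-ratio scaling. Against Sham 3 of the 13 rose and 3 fell in primed MSC, 3 rose and 9 fell in control MSC, and 2 rose and 4 fell in IUA, where 45.0, 42.7 and 45.0 percent of all tested genes fell. Under median-ratio scaling, with 14 tested, 5 rose and 2 fell in primed MSC, 3 rose and 7 fell in control MSC, and 2 rose and 2 fell in IUA. Libraries of a group differed for this list of 16. Primed MSC replicate 1 was the highest of its group for 14 of the 16, Sham replicate 2 the highest for 12 and Sham replicate 3 the lowest for 12. Iigp1, a GTPase of defence against parasites, was among those that fell in IUA (-1.08 ± 0.26, adjusted p = 0.00394), while Cd274, which encodes the T cell inhibitor PD-L1, rose (1.65 ± 0.19, adjusted p = 8.25e-05). Of 10 chemokines and receptors that guide T and NK cells, 2 rose in primed MSC against IUA, where 1410 of all 11604 tested genes rose. Cx3cl1, a chemokine of the vessel wall that attracts NK cells, was 1 of the 2 (1.42 ± 0.36, adjusted p = 0.0196).

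**Figure D4:**
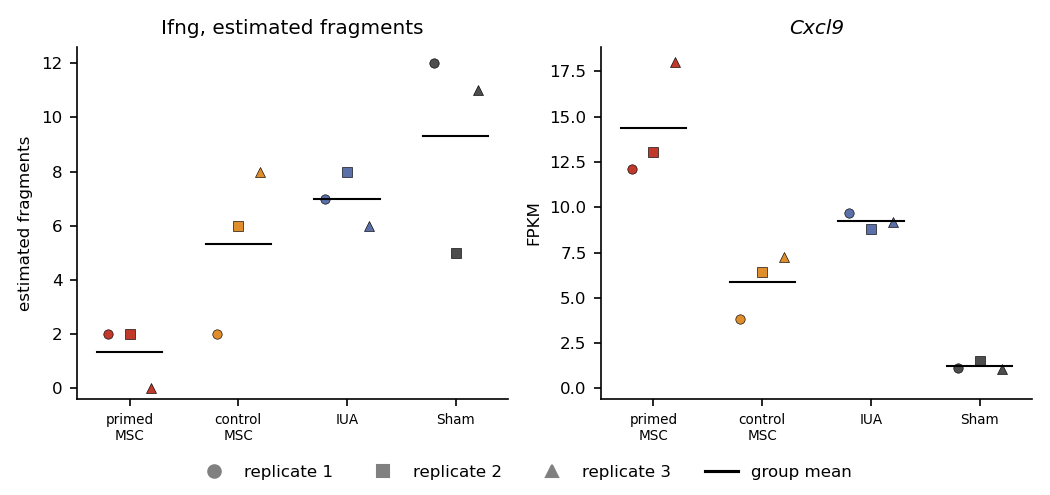
Estimated fragments of Ifng and FPKM of Cxcl9 (vertical axes, linear) in the 12 libraries, grouped as primed MSC, control MSC, IUA and Sham from left to right. Symbols mark replicates and bars the group mean. Primed MSC libraries hold 0 to 2 fragments of Ifng and the highest Cxcl9 (12.13 to 18.00 FPKM), and Sham libraries hold 5 to 12 fragments of Ifng and the lowest Cxcl9.

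Genes whose log2 values followed those of 3 members most closely over the 12 libraries were taken as a description, since libraries share groups and depth. For Ifng they were Klri2, an NK cell receptor chain (Pearson r = 0.917), AW551984 (0.917), Ptpn22, a phosphatase that restrains T cell signalling (0.894), and Lsm8, an RNA-processing factor (0.894). Klri2 was at 0.25 to 0.47 FPKM in primed MSC, 0.16 to 0.89 in control MSC, 0.52 to 1.03 in IUA and 1.03 to 2.05 in Sham libraries. For Cd3e they were Sfrp4 (0.900), Ncam1 (0.885), Col3a1 (0.876) and Col6a2 (0.869), of which the collagens are made by stromal cells. Sfrp4 was at 24.77 FPKM in IUA replicate 1, the library with the highest Cd3e, and at 3.08 to 16.94 elsewhere. For Ncr1 they were Lipt1 (0.911), Slc45a4 (0.884), Dop1b (0.867) and Chml (0.864). Ifng, Cd3e and Ncr1 were under 1 FPKM in every library and near 0 in some, so the correlations of all 3 are no finding.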

How the data were processed

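RNA of F4/80-sorted endometrial cells was measured in 12 libraries, 3 in each of 4 groups taken from the labels. The authors deposited FPKM values of 22294 genes in each library. Per the submitters' processing notes, the tools were DESeq2, RSEM, StringTie, HISAT2 and fastp on mm10, with no role or order given, and versions are not given in the sources used here. The 11604 genes that reached an FPKM of 1 in 3 or more libraries were fitted as log2(FPKM + 1) with limma 3.58.1 in R 4.3.3, with 1 mean per group, a variance trend, two-sided tests and Benjamini-Hochberg adjustment over all tested genes. The 4 members under the filter were read from the same fit to all genes above 0 (18057). With 3 libraries a group, the smallest two-sided p of an exact permutation test is 0.1, so none was run.

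Depth was estimated per library from 1944 single-transcript genes of 400 to 1500 bases (annotation GENCODE, GRCm38). Of the 93 to 195 low values used, 80.6 to 91.4 percent lay within 0.15 of a whole fragment, where an even spread would give 30.0 percent. This is an estimate, so no count test was run. Both steps were tested on simulated data. Fragments are printed for Ifng alone, whose values came out near whole in every library.

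The members and the 17 gene lists were chosen with earlier results of these data known, and no p is adjusted over a list alone. All 10 members are named, with up to 4 genes of smallest F test p from each list described, and the 4 genes most correlated with Ifng, Cd3e and Ncr1 each. Trbc2, Cd2, Klra7, Cd3d, Cd3g, Cd8a, Bcl11b, Foxp3, Il2, Il21, Gzmc, Gzmd, Gzme and Gzmf were added after their values were seen. Alternatives were a pseudocount of 0.1, no filter, a filter at FPKM 5, scaling to equal totals or by median ratios, the compared groups alone, a replicate block, and leaving out each library. The labels do not state a pairing by replicate number, and none was used in the main fit. Some genes of the lists are not reported here.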

Additional observations from a re-analysis of the deposited data

How the results depend on the processing

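Calls by limma among the 6 tested members depended on the setting in 4 comparisons. With a filter at FPKM 5, 4 members were left, and 1 passed in IUA against Sham, 1 in primed MSC against IUA, 3 in control MSC against Sham and 3 by the F test. Median-ratio scaling gave 1 in IUA against Sham and 3 in control MSC against Sham, and the compared groups fitted alone gave 5 in IUA against Sham, 3 in control MSC against Sham and 4 in primed MSC against IUA. Leaving out each library gave 2 to 5 in IUA against Sham, 1 to 4 in primed MSC against IUA, 2 to 5 in control MSC against Sham, 4 to 4 in primed MSC against Sham and 3 to 6 by the F test, with 0 throughout in control MSC against IUA and primed against control MSC. Over all genes, calls without 1 library were 5 to 329 in control MSC against IUA, against 99 with all, and 0 to 233 in primed against control MSC, against 13.

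Of 1080 member values under an alternative, 1006 kept their direction and side of the threshold, 34 no longer passed, 19 newly passed and 21 reversed. None of the values that reversed had passed. Klrb1c in control MSC against IUA was -0.155 with a pseudocount of 0.1 and -0.004 when libraries were scaled to equal totals, and Ifng in IUA against Sham was 0.004 under median-ratio scaling. The other reversals came from leaving out 1 library. In primed against control MSC the lowest and highest log2 changes were -1.114 and 0.061 for Nkg7, -0.661 and 0.339 for Gzma, -0.929 and 0.142 for Gzmb, -0.707 and 0.01 for Prf1 and -0.317 and 0.046 for Klrb1c, each highest without control MSC replicate 3. In control MSC against IUA they were -0.153 and 0.1 for Cd3e, -0.529 and 0.009 for Trbc1, -0.333 and 0.384 for Prf1, -0.181 and 0.182 for Klrb1c and -0.265 and 0.008 for Ncr1. In IUA against Sham they were -0.231 and 0.022 for Cd3e and -0.145 and 0.581 for Gzma, and in primed MSC against IUA -0.234 and 0.018 for Cd3e and -0.008 and 0.151 for Ncr1. The cause was not tested.

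Deviations of same-numbered libraries from their group means correlated with r of -0.293 to 0.288. Such correlations cannot decide whether these libraries share a batch, which the labels do not state. With a replicate block the member calls were 3 in IUA against Sham, 0 in control MSC against IUA, 2 in primed MSC against IUA, 0 in primed against control MSC, 5 in control MSC against Sham, 4 in primed MSC against Sham and 5 by the F test, and over all genes 43 in control MSC against IUA and 0 in primed against control MSC. At these depths Ifng rests on 0 to 12 fragments a library, so differences of a few fragments are not detectable.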
